A study of Mus musculus with 8 samples.

Results

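Dual oxidases and NADPH oxidases are membrane enzymes that pass electrons from NADPH to oxygen. Duox1 and Duox2 release hydrogen peroxide, which is used in the thyroid to make thyroid hormone and in airway and gut linings in defence. Each dual oxidase needs a partner of the Duoxa family to leave the endoplasmic reticulum and become active, and the classical Nox enzymes need the membrane subunit Cyba (p22phox) together with cytosolic organizers and activators. The pancreatic beta cell is known for low levels of several enzymes that remove hydrogen peroxide.

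The gene family described here has 10 members of the 23100 genes in the count table: Duox1, Duox2, their maturation factors Duoxa1 and Duoxa2, the catalytic subunits Nox1, Nox4 and Cybb, the membrane subunit Cyba, the organizer Noxo1 and the activator Noxa1. All 10 were found by symbol. The family was chosen by function, and selected on the Zac1 against control values of earlier work with the same libraries. Its changes are therefore given as a description, and no test supports the choice.

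The libraries came from Min6 cells, a mouse insulinoma line used as a model of beta cells, 16 h after Lipofectamine transfection. One group of 4 received pRK5-Zac1, an expression plasmid for the zinc finger factor Zac1, whose gene is Plagl1. The other group of 4 received pRK5-NLSeGFP, which expresses a nuclear green fluorescent protein, as the control. Both groups hold replicates 1, 2, 3 and 5, termed biological replicates in the design text, and the labels do not say whether they were separate cultures, so the spread between them may be technical. Both plasmids share the pRK5 backbone, and the labels do not give the share of cells transfected. In bulk RNA, more cells with the transcript and more transcript per cell cannot be told apart.

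The Zac1 libraries held 34.7 to 42.4 M (mega) counts each and the controls 30.5 to 35.0 M. Plagl1 stood at 5785, 4247, 4117 and 4368 CPM (counts per M counts, TMM-scaled) in the Zac1 libraries, against 78.4, 67.7, 79.5 and 85.4 CPM in the controls, so the plasmid gene matched the labels in every library. Of the 10 beta cell markers examined, all were tested and none was called, and none stood below 2.98 CPM in any library. The leukocyte markers, which bear on the phagocyte gene Cybb, summed to 5.53 to 7.87 CPM with Zac1 and 6.31 to 7.10 CPM in the controls, mostly from Cd68. Summed fibroblast markers were 0.189 to 0.340 CPM against 0.117 to 0.170 CPM. For endothelium the sums were 1.24 to 2.08 CPM with Zac1 and 1.56 to 2.06 CPM in the controls, for acinar and duct cells 0.964 to 1.42 CPM and 1.05 to 1.54 CPM. Cdh5, Lum and Prss2 had 0 counts in all 8 libraries, and Spi1 of the leukocyte list was not analysed here. The hormone markers of other islet cells summed to 1332 to 2125 CPM with Zac1 and 1239 to 1678 CPM in the controls, nearly all of it Gcg, the glucagon gene.

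The 4 dual oxidase genes lie side by side on chromosome 2, in the order Duox2, Duoxa2, Duoxa1, Duox1 of the RefSeq annotation of GRCm38.p6. Duox1 and Duoxa2 are on the plus strand and Duox2 and Duoxa1 on the minus strand, so each oxidase is transcribed away from the maturation factor beside it. The 250 bases before each start are shown because the 4 genes share this locus and differ in their values below. They are from RefSeq (GRCm38.p6), whereas the counts were made on mm9. Capitals mark GGGGC or its reverse complement GCCCC, a shorter stretch of GGGGCCCC, the core of a GC-rich site that Zac1 is known to bind.

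Duox2, chr2:122298228-122298477, minus strand: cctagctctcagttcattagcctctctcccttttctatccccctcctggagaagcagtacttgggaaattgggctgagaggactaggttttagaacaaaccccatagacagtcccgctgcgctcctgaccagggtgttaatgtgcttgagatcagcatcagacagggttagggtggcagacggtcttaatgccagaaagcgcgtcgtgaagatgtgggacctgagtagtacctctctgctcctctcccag
Duoxa2, chr2:122298650-122298899, plus strand: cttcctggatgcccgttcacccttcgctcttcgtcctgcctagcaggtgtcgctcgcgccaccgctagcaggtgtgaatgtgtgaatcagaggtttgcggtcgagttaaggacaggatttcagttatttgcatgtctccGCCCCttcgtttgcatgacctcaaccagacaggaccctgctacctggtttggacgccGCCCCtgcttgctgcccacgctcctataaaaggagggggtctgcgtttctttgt
Duoxa1, chr2:122313731-122313980, minus strand: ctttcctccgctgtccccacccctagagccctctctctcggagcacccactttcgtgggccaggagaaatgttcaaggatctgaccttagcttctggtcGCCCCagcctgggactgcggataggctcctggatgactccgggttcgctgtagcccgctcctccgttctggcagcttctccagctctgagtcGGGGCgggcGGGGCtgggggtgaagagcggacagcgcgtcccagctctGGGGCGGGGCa
Duox1, chr2:122315422-122315671, plus strand: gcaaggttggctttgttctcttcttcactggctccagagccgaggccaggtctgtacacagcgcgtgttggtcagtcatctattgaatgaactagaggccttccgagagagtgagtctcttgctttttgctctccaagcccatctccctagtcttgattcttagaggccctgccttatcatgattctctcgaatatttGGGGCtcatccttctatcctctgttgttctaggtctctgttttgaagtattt

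None of the 4 windows held GGGGCCCC, which reads the same on both strands and was found in 0.889% of the 32851 promoter windows of that length. The shorter GGGGC, searched on both strands and part of the longer site, was found 0 times before Duox2, 2 times before Duoxa2, 5 times before Duoxa1 and 1 time before Duox1, and at least once in 56.5% of all windows. The window of Duoxa1 had a GC content of 65.6%, above 83.8% of all promoter windows, while that of Duox1 had 47.6%, above 32.4% of them. Duox2 (52.8%) and Duoxa2 (56.4%) lay nearer to the median of 52.4%. These matches describe the letters of 1 annotated start per gene and say nothing of binding in these cells.

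Of the 3 members with enough reads to be tested, both catalytic dual oxidases were higher with Zac1. Duox1 had 20, 13, 17 and 32 counts in Zac1 libraries 1, 2, 3 and 5, against 3, 0, 0 and 1 in the controls with the same numbers. Every Zac1 library was above every control library, and the highest level was in Zac1 library 5. On the CPM scale this was 0.503 ± 0.175 with Zac1 and 0.0301 ± 0.0414 in the controls (SD, n = 4 each).

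Duox2 had 39, 34, 17 and 23 counts in the Zac1 libraries and 4, 5, 3 and 2 in the controls. The groups again did not overlap, with the highest levels in Zac1 libraries 1 and 2 and the lowest of that group in library 3. Its level was 0.712 ± 0.278 CPM with Zac1 and 0.105 ± 0.0327 CPM in the controls (SD, n = 4 each). Both oxidases were thus at or near silence in control cells and at under 1 CPM after transfection with Zac1.

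In the fit across all genes the log2 change of Duox1 was 3.92 ± 0.61 (SE), a 15.1-fold difference, and that of Duox2 was 2.70 ± 0.42, a 6.49-fold difference. From the counting error of the summed counts alone, 82 with Zac1 against 4 in the controls for Duox1, the ratio was 16.8 with an exact 95% interval of 6.31 to 63.1. For Duox2, with 113 counts against 14, it was 6.61 with an interval of 3.78 to 12.5. The intervals overlap from 6.31 to 12.5, and the difference between the 2 genes was not tested. Without control library 1, which held 3 of the 4 control counts of Duox1, its fitted log2 change was 5.23, a 37.5-fold difference, so the size of its fold rests on those few reads.

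A gene is called here when its edgeR p, Benjamini-Hochberg adjusted over all 14331 tested genes, is below 0.05. Of the 10 members, 3 were tested and 2 were called, Duox1 and Duox2, both higher with Zac1, beside 2.18% of all tested genes called. They were also the 2 members whose groups did not overlap with Zac1 higher, beside 4.39% of all tested genes. The contrast was known when the family was chosen, so nothing is read from these counts. Both oxidases also passed the filter on low counts through the Zac1 group alone: all 4 Zac1 libraries and 0 control libraries reached its level of 0.287 CPM, as for 94 of the 308 genes called higher. Ranked by log2 change, Duox1 was at place 34 and Duox2 at place 75 of those 308.

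**Figure D1:**
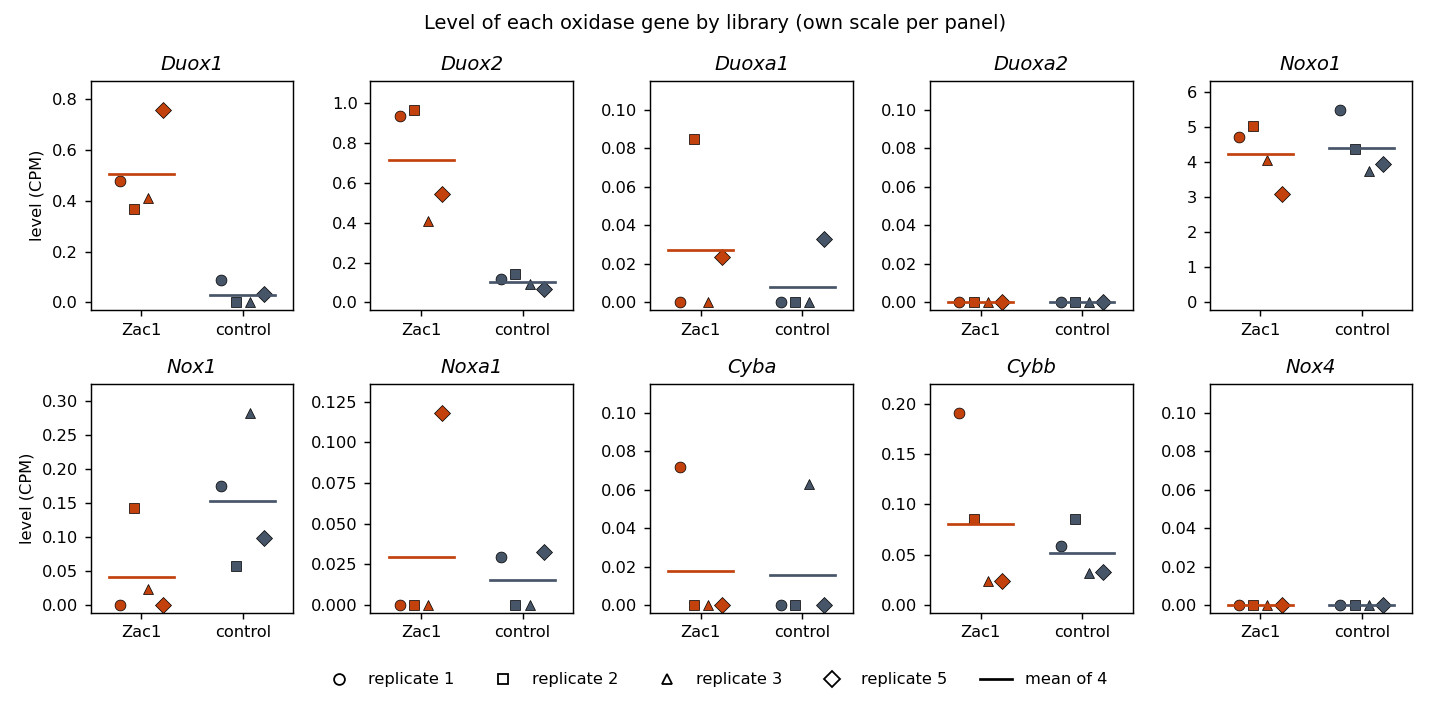
Level in CPM (vertical axes, a separate linear scale in each panel) of the 10 family members in each Zac1 and control library, with replicates 1, 2, 3 and 5 as different symbols and a line at the mean of 4. Duox1 (Zac1 mean 0.503 against control mean 0.0301 CPM) and Duox2 (0.712 against 0.105 CPM) are the panels in which the groups do not overlap. Noxo1 overlaps at a higher level, and Duoxa2 and Nox4 are at 0 throughout.

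The share of Duox2 in the dual oxidase reads varied in value among the Zac1 libraries, and intervals here cover counting error alone. Of the reads assigned to either dual oxidase, the share from Duox2 was 66.1% in library 1 (exact 95% binomial interval 52.6% to 77.9%, 59 counts) and 72.3% in library 2 (57.4% to 84.4%, 47 counts). It was 50.0% in library 3 (32.4% to 67.6%, 34 counts) and 41.8% in library 5 (28.7% to 55.9%, 55 counts). The share was highest in library 2 and lowest in library 5, and whether it differs between libraries was not tested. Over all 4 libraries the share was 57.9% (50.7% to 65.0%) with Zac1 and 77.8% (52.4% to 93.6%) in the controls, where it rests on 18 counts. The summed level of both oxidases was 1.41, 1.33, 0.819 and 1.30 CPM in Zac1 libraries 1, 2, 3 and 5. In the controls it was 0.205, 0.142, 0.0942 and 0.0981 CPM. Library 3 was the lowest of the Zac1 group in this sum. It was also lowest for Plagl1, at 4117 CPM beside 4247 CPM in library 2. Duox1 alone was lowest in library 2 (0.369 CPM, beside 0.410 CPM in library 3), and a relation to the Plagl1 level was not tested.

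**Figure D2:**
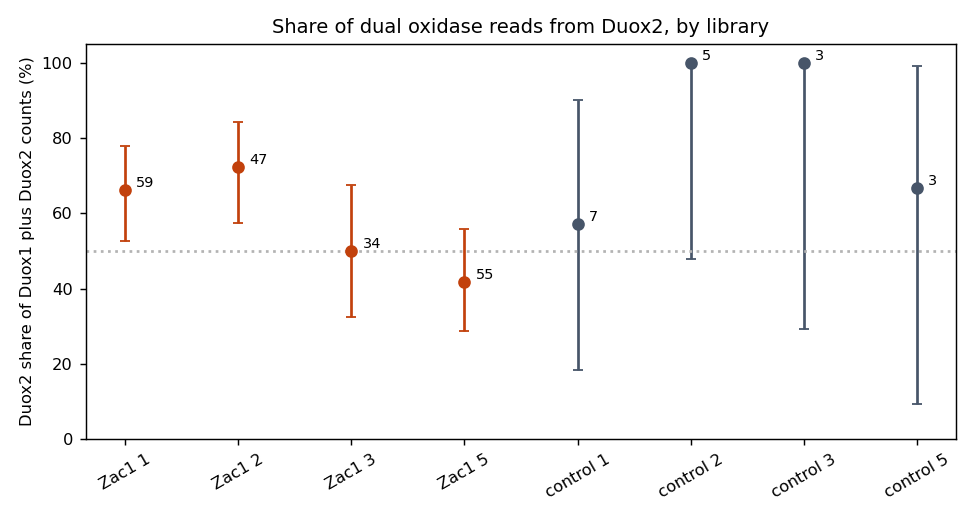
Share of Duox1 plus Duox2 counts that came from Duox2 (vertical axis, percent) in each library (horizontal axis), with exact 95% binomial intervals as bars and the summed count beside each point. The Zac1 libraries run from 41.8% to 72.3%, and the control intervals are wide because each rests on 3 to 7 counts.

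Part of the sequence of these paralogs is identical, so the split between them is uncertain. Of the 30-base words of the GENCODE M21 Duox1 transcript, 13.8% also occur in the Duox2 transcripts, and 11.8% of the Duox2 words occur in Duox1. For 50-base words the shares were 7.95% and 6.79%. How the authors' counting treated reads from such stretches is not given in the sources used here. With Zac1 the level per kb of annotated exon was 0.0955 ± 0.0332 CPM per kb for Duox1 (SD, n = 4). For Duox2 it was 0.117 ± 0.0455 CPM per kb (SD, n = 4). Both genes were measured in the same libraries, and the difference between them was not tested. In the controls the per-kb levels were 0.00572 ± 0.00786 for Duox1 and 0.0171 ± 0.00534 for Duox2.

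The maturation factors were at or near 0 counts in both groups. Duoxa1, the partner of Duox1, had 0, 3, 0 and 1 counts in Zac1 libraries 1, 2, 3 and 5 and 0, 0, 0 and 1 in the controls. With 4 counts against 1, the ratio was 3.28 with an interval of 0.324 to 161, so no difference was detectable at this depth. Duoxa2, the partner of Duox2, had 0 counts in every one of the 8 libraries. A count of 0 allows up to 3 counts over the 4 Zac1 libraries, a level of 0.0186 CPM, and 0.0228 CPM over the controls. Neither factor was tested, since no library reached the filter level. The 2 maturation factors overlap each other on opposite strands in GENCODE M21, and their few reads are uncertain because the strand setting of the counting is not known.

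None of the genes around the dual oxidase cluster was called. Sord, the sorbitol dehydrogenase gene next to Duox2, stood at 25.9 ± 1.93 CPM with Zac1 and 27.8 ± 0.924 CPM in the controls (log2 -0.10 ± 0.07, edgeR adjusted p = 0.84). Shf, an adaptor protein gene next to Duox1, stood at 1.32 ± 0.18 and 1.36 ± 0.102 CPM (log2 -0.04 ± 0.17, edgeR adjusted p = 0.986). Among the other tested neighbours, the antigen presentation subunit B2m had a log2 change of 0.16 ± 0.14, the nucleoside transporter Slc28a2 of -0.36 ± 0.40, the pseudogene Bambi-ps1 of -0.04 ± 0.16 and the creatine synthesis enzyme Gatm of -0.06 ± 0.10. For these 6 genes the edgeR adjusted p ran from 0.84 to 0.987. Patl2 (42 against 49 counts), Trim69 (12 against 8), 4933406J08Rik (25 against 17) and Gm14085 (42 against 30) were not tested, and the groups overlapped in each. The neighbours were taken by place, 5 on each side that have a row in the table.

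**Figure D3:**
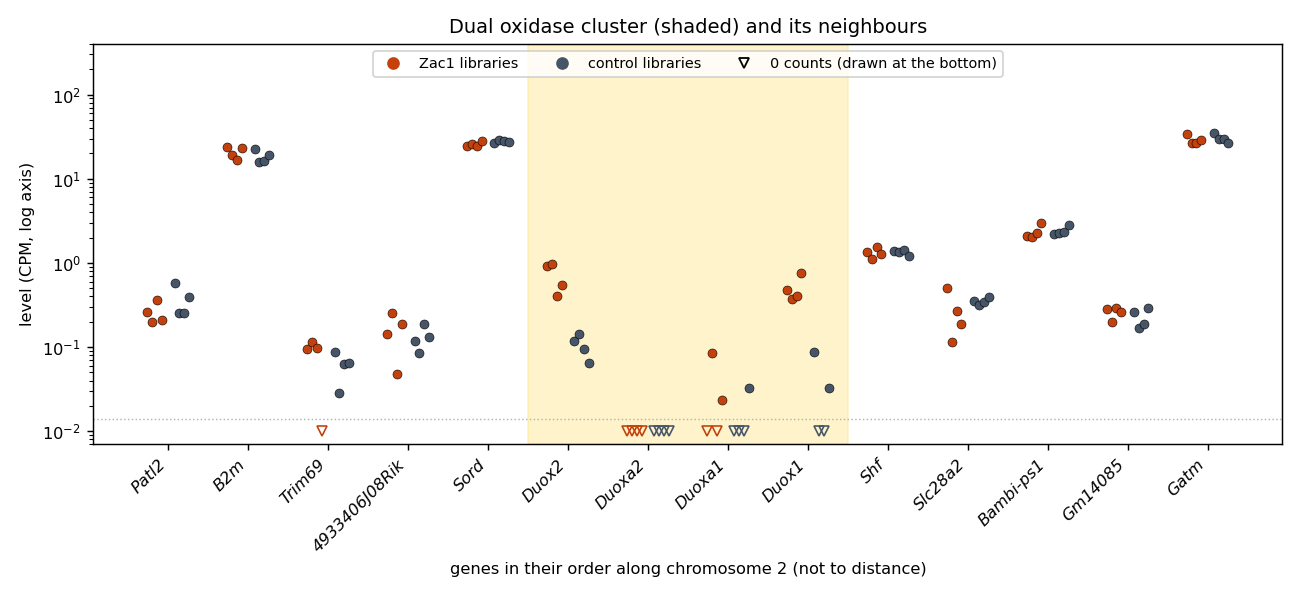
Level in CPM (vertical axis, logarithmic) of the dual oxidase genes (shaded) and 5 neighbours on each side, in their order along chromosome 2 (horizontal axis), with 1 point per Zac1 or control library and open triangles for 0 counts. Duox2 and Duox1 are the genes whose Zac1 points all lie above the control points, while Sord (25.9 against 27.8 CPM) and Shf (1.32 against 1.36 CPM) overlap.

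The organizer Noxo1, which binds the activator Noxa1 and holds the Nox1 complex at the membrane, was the member with the highest level per kb of exon. It had 198, 178, 169 and 131 counts in Zac1 libraries 1, 2, 3 and 5 and 188, 154, 120 and 121 in the controls. The groups overlapped, and in CPM control library 1 was the highest and Zac1 library 5 the lowest. Its level was 4.24 ± 0.862 CPM with Zac1 and 4.40 ± 0.775 CPM in the controls (SD, n = 4 each), with a log2 change of -0.06 ± 0.16 that did not pass the threshold. Without Zac1 library 5 or control library 1 its log2 change was 0.07, without both libraries numbered 5 it was 0.02, and in none of these fits was it called. Per kb of exon it stood at 1.89 ± 0.385 CPM per kb with Zac1 and 1.97 ± 0.346 in the controls, above both dual oxidases in every library. Tbl3 overlaps Noxo1 on the other strand, which makes its reads uncertain.

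The enzyme that Noxo1 serves was nearly silent. Nox1 had 0, 5, 1 and 0 counts in Zac1 libraries 1, 2, 3 and 5 and 6, 2, 9 and 3 in the controls. The groups overlapped, since Zac1 library 2 was above control libraries 2 and 5 in CPM. From 6 counts against 20 the ratio was 0.246, and its counting interval ran from 0.0808 to 0.634, which leaves the spread between libraries out. The gene did not reach the filter, and with the filter off its edgeR adjusted p was 0.556. In GENCODE M21 the span of Nox1 overlaps Xkrx on the same strand and Cstf2 and Arl13a on the other, which makes these few reads uncertain. Its activator Noxa1 had 0, 0, 0 and 5 counts with Zac1 and 1, 0, 0 and 1 in the controls, and overlaps Entpd8 on the other strand.

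The other subunits were at or near 0. Cyba, the membrane partner of Nox1, Nox4 and Cybb, had 3, 0, 0 and 0 counts with Zac1 and 0, 0, 2 and 0 in the controls. It overlaps Gm20388 on the other strand. Cybb, the phagocyte oxidase subunit also called gp91phox, had 8, 3, 1 and 1 counts with Zac1 and 2, 3, 1 and 1 in the controls, a ratio of 1.52 with an interval of 0.564 to 4.50. Nox4, an oxidase that makes hydrogen peroxide without cytosolic activators, had 0 counts in all 8 libraries, which allows up to 0.0102 CPM over the series. The transcripts detected in both groups at a level that could be tested were therefore those of 1 member, Noxo1.

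The patterns nearest to those of the dual oxidases over the 8 libraries were sought among the tested genes. Family members and unnamed gene models, such as those with Rik or Gm symbols, were left out of this search. Nearness was the root mean square difference of log2 CPM, each gene centred on its own mean. The log2 CPM had a prior count of 2, which draws the changes of genes with few reads toward 0. For Duox1 the nearest were Alpl, the tissue-nonspecific alkaline phosphatase (0.32), Itpripl2 (0.33) and the ligand gene Wnt7b (0.40). For Duox2 they were Aif1l, an actin-binding protein gene (0.27), the zinc finger gene Zfp831 (0.30) and Fndc5, the precursor of irisin (0.30). Duox1 and Duox2 differed from each other by 0.73 on the same measure. This exceeds the values of the nearest genes, but those were picked as the smallest of the search. It therefore cannot show how near the 2 oxidases are relative to genes in general, which was not tested. Each of the 6 was itself higher with Zac1, which a search for patterns like these favours, with log2 changes from 2.21 to 3.82. Itpripl2 stood at 1.31 ± 0.249 CPM with Zac1 and 0.112 ± 0.082 CPM in the controls. The fitted log2 change of Alpl was 2.55 ± 0.24 beside 3.92 ± 0.61 for Duox1, so nearness on this measure is not a like fitted change.

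In the main fit, the genes that work with or around these oxidases were called at about the rate of all genes. The 6 related lists hold 94 genes, of which 67 were tested and 2 called (2.99%, beside 2.18% of all tested genes), with a median log2 change of -0.03 over the tested list genes and -0.01 over all tested genes. The other parts of NADPH oxidases had 0 of 10 tested genes called, with 2 at an unadjusted edgeR p under 0.05, the GTPase Rac2 (log2 0.55 ± 0.18, edgeR adjusted p = 0.258) and the adaptor Sh3pxd2b (0.35 ± 0.11, edgeR adjusted p = 0.206). Sh3pxd2a, a scaffold of the same kind and the most abundant of the list, stood at 178 ± 6.46 CPM with Zac1 and 173 ± 7.82 CPM in the controls. The phagocyte organizer Ncf1 had a log2 change of -0.18 ± 0.24. As background for such counts here and in the lists below, 14331 genes were tested in all. Of these, 810 higher and 277 lower genes had an unadjusted edgeR p under 0.05.

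Of 15 genes of thyroid hormone synthesis, the pathway best known for Duox2, 7 were tested and 0 called, also 0 at an unadjusted edgeR p under 0.05. Iyd, which recovers iodide from iodotyrosines, stood at 22.0 ± 2.57 CPM with Zac1 and 22.1 ± 0.962 CPM in the controls. Slc5a5, the iodide transporter, had a log2 change of -0.08 ± 0.14, and the transcription factor Nkx2-1 of -0.15 ± 0.16. The hormone precursor Tg had 34 counts with Zac1 and 28 in the controls and was below the filter. Dio3, the deiodinase that inactivates thyroid hormone, was also below it, with 19, 5, 15 and 10 counts in Zac1 libraries 1, 2, 3 and 5 and 0 in every control library. With the filter off, Dio3 was called higher (edgeR adjusted p = 0.000539); it is named because of its values. Of the peroxidases, 2 were tested and 0 called in edgeR (0 at an unadjusted p under 0.05), the matrix peroxidase Pxdn at a log2 change of 0.03 ± 0.08 and the prostaglandin synthase Ptgs2 at 0.26 ± 0.20.

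Genes that remove hydrogen peroxide, listed together with the superoxide dismutases Sod1, Sod2 and Sod3, had 0 of 19 tested members called. The 1 member at an unadjusted edgeR p under 0.05 was the thioredoxin reductase Txnrd3 (log2 0.38 ± 0.13, edgeR adjusted p = 0.259). Prdx1, a peroxiredoxin and the most abundant of them, stood at 365 ± 63.8 CPM with Zac1 and 346 ± 13.2 CPM in the controls. Catalase (Cat) was near silence in both groups, at 24 counts with Zac1 and 12 in the controls. Gpx3, the secreted glutathione peroxidase, had 17, 6, 20 and 12 counts with Zac1 and 4, 3, 2 and 0 in the controls. It was below the filter, was called higher with the filter off (edgeR adjusted p = 0.0295), and is named because of its values. Among targets and regulators of Nrf2, the factor that answers oxidative stress, 1 of 15 was called higher, Osgin1, an oxidative stress-induced growth inhibitor, and 3 had an unadjusted edgeR p under 0.05. Osgin1 had 79, 84, 121 and 74 counts in Zac1 libraries 1, 2, 3 and 5 and 39, 36, 48 and 20 in the controls, and the groups did not overlap. Its log2 change was 1.04 ± 0.24 (edgeR adjusted p = 0.0297), and the call was lost without Zac1 library 2 or 3 or control library 1, 2 or 5 (edgeR adjusted p = 0.096, 0.119, 0.0719, 0.0989 and 0.0655). Hmox1 (log2 0.14 ± 0.08) and Gclm (0.01 ± 0.06), other targets of the factor, were not called. The other 2 under that unadjusted level were Nfe2l2, the gene of Nrf2 itself (log2 0.16 ± 0.06, edgeR adjusted p = 0.488), and Ftl1, a ferritin chain (-0.15 ± 0.06, edgeR adjusted p = 0.393).

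Of 14 tested genes for other oxidant producing enzymes 1 was called higher, Nos1, the neuronal nitric oxide synthase. It had 50, 22, 39 and 44 counts with Zac1 and 12, 17, 15 and 16 in the controls, without overlap in CPM. Its log2 change of 1.06 ± 0.26 was close to the threshold (edgeR adjusted p = 0.0486), and it lost the call in DESeq2 (adjusted p = 0.0581) and limma-voom (adjusted p = 0.0797). It also lost it in 7 of the 8 fits that left out 1 library, all but that without Zac1 library 2 (edgeR adjusted p from 0.0192 to 0.169 over the 8). The endothelial synthase Nos3 had a log2 change of -0.49 ± 0.23, and Ero1lb, an oxidase of protein folding and the most abundant gene of the list, of 0.03 ± 0.06.

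**Figure D4:**
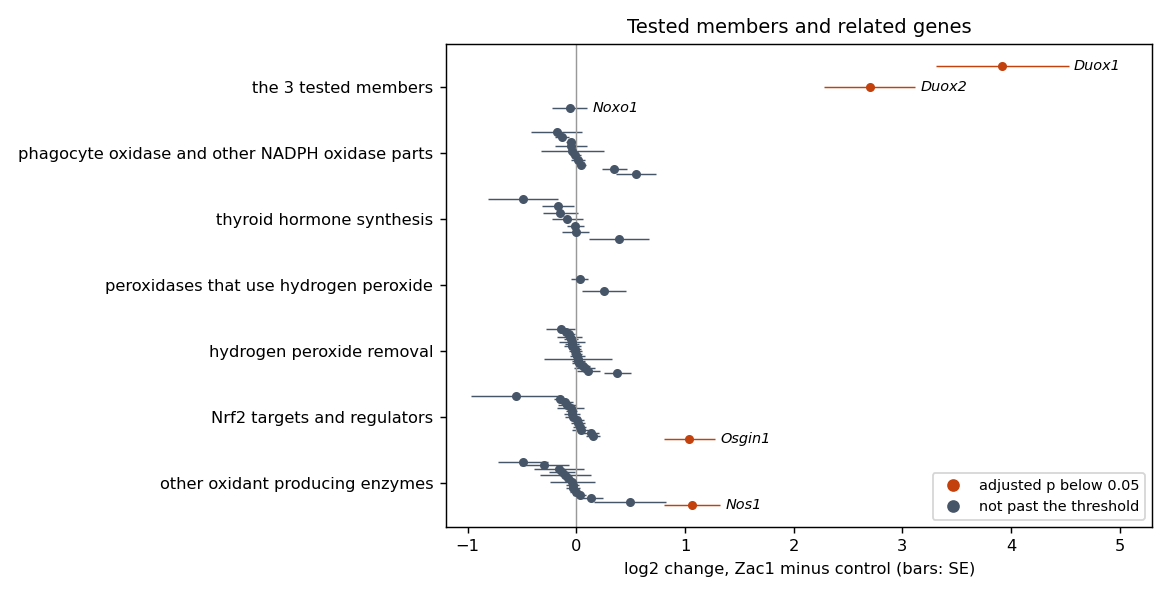
Log2 change, Zac1 minus control (horizontal axis, bars are SE), of the 3 tested family members and of the tested genes of 6 related lists (rows), with called genes in orange. Duox1 (3.92) and Duox2 (2.70) lie apart from Noxo1 (-0.06) and from the tested related genes, of which Osgin1 (1.04) and Nos1 (1.06) were called. Related genes below the filter are not drawn, of which Dio3 (6.48) and Gpx3 (2.27) were called with the filter off.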

How the data were processed

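The authors deposited raw counts of reads per gene for 8 libraries, made from stranded mRNA preparations per the labels. The submitters' processing notes name bcl2fastq 2.17, FastQC, TopHat2 2.1.1, Bowtie2 2.2.8, HTSeq 0.6.1p1 and the build mm9. Neither the annotation nor the strand setting nor the treatment of shared reads is given in the sources used here.

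Counts were tested with edgeR 4.0.16 in R 4.3.3: filterByExpr with a minimum count of 10, TMM scaling, robust quasi-likelihood fit and F test on an intercept and the group, and Benjamini-Hochberg adjustment over all tested genes. The steps were checked on simulated counts, with changes placed only in genes with more reads than the dual oxidases. That check therefore does not cover genes as sparse as these. Alternatives were RLE scaling, library totals, no filter, DESeq2 1.42.0, limma-voom (limma 3.58.1), a replicate block and left-out libraries. The SE is the absolute log2 change over the square root of F. Intervals (95%) and the floor of 3 counts cover counting error alone, because PCR copies cannot be told from separate molecules here. Exon lengths and strands came from GENCODE M21. Every pair of replicates was further apart than sampling noise (chi-square per degree of freedom 8.42 to 28.2), so none was a copy. Pairs that include replicate 5 were the furthest apart in both groups, at 14.7 to 28.2.

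Members and lists were chosen with earlier results of these data known. Named are all members, Plagl1, the 3 nearest patterns, each list's called genes and its most abundant gene, and the neighbours; a few list genes are not reported here, and other list genes were chosen after their values were seen. Gene order came from RefSeq, with neighbours matched by gene ID.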

Additional observations from a re-analysis of the deposited data

Results flagged for a closer look

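Of 66 sets of 4 libraries examined, 2 groups for each of the genes named by rule that had counts, 10 had 1 library set apart from the other 3, by a gap to its nearest neighbour over the whole range above Dixon's 95% critical value for 4 samples. Chance flags about 1 in 20 such sets, and in near-silent genes a single library with reads is enough.

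Of the family, Noxa1 had a ratio of 1 in the Zac1 libraries, where library 5 held all 5 counts. Cyba had a ratio of 1 in the Zac1 libraries (3 counts in library 1) and of 1 in the controls (2 counts in library 3). Duoxa1 had a ratio of 1 in the controls, with a single count in library 5. Nox1 had a ratio of 0.83 in the Zac1 libraries, where library 2 held 5 of the 6 counts.

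Plagl1 had a ratio of 0.849 in the Zac1 libraries, with library 1 at 5785 CPM above the other 3. The neighbour Trim69 had a ratio of 0.843, with 0 counts in Zac1 library 5. Itpripl2 had a ratio of 0.869 in the controls, Prdx1 of 0.898 in the Zac1 libraries and Ftl1 of 0.882 in the controls.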

How the results depend on the processing

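Duox1 and Duox2 were called and higher with Zac1 in all 15 alternatives, and 2 members were called in each. These fits reuse the libraries on which the family was selected, so their calls show dependence on processing and add no support. Both genes passed the filter of the main fit through the Zac1 group alone. The log2 change of Duox1 ran from 3.52 to 5.23 (adjusted p from 3.01e-05 to 0.00845) and that of Duox2 from 2.52 to 2.89 (1.23e-05 to 0.00948). Noxo1 was called in none, with log2 changes from -0.15 to 0.07. With the filter off, the 5 untested members that had counts were not called either (edgeR adjusted p from 0.556 to 0.987). Over all genes the calls numbered 313, and 262 to 362 with 1 library left out.

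A replicate block in the fit gave 628 called genes, among them all 313, and 81.5% of these calls were higher, against 98.4% without it. Same-numbered libraries had correlated deviations of 0.05 to 0.29 over 4 pairs, not above 0.1 in each, and 7 of the 8 libraries correlated best with their own number (all 4 Zac1 and 3 control), so the numbers are a hint of pairing and not a design. The related lists had 2 genes called in the main analysis, 4 with the block (Osgin1, Nos1, Sh3pxd2b and, lower, Ftl1), 4 without the low count filter (Osgin1, Nos1, Dio3 and Gpx3), 1 with DESeq2, 1 with limma-voom and 1 without both libraries numbered 5, with 0 to 1 when 1 library was left out. The causes of these shifts were not tested, other than that the unfiltered fit tests more genes. Of all 19900 genes in the unfiltered fit, 426 were called, and with the block 628 of 14331. Depth limits the 7 untested members: 0 to 9 counts per library cannot show a moderate difference.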

Other observations

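Loxl4, a lysyl oxidase among the other oxidant producing enzymes, was below the low count filter and was chosen after its values were seen. It had 22, 9, 20 and 18 counts in Zac1 libraries 1, 2, 3 and 5 and 1, 9, 4 and 4 in the controls, and was not called with the filter off (edgeR adjusted p = 0.0784).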
